A study of Mus musculus with 6 samples.

Results

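The CpG sites described here were the autosomal sites with at least 30 reads in each of 6 samples and with no methylated read in any of them. There were 3893 such sites among 203841 autosomal sites read at least 30 times in every sample (deeply read sites, 1.91%), and among 2268080 sites in all. They are called never-methylated sites below, a name that covers only the reads that were counted. They were chosen by their read coverage and their methylation level in the same 6 samples, so a level of 0 at them is the rule itself and not a result.

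Germline stem (GS) cells are spermatogonia, including spermatogonial stem cells, that are expanded in culture on mouse embryonic fibroblast feeder cells with self-renewal factors. All 6 samples were GS cells with the genotype DBA/Tg14(act-EGFP-OsbY01), an EGFP transgene driven by the actin promoter that came from a C57BL6 line and was bred into DBA/2. Space GS cells (n = 3) were kept frozen for 6 months in the International Space Station and Ground GS cells (n = 3) were kept frozen for 6 months on Earth, and both were thawed and cultured before reduced representation bisulfite sequencing (RRBS). The labels call the 3 samples of a group biological replicates, and they do not say whether these were separate cultures before freezing or only after thawing, so p-values measure the spread between these samples.

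In mammalian genomes most CpG dinucleotides are methylated, except in CpG islands, which are stretches of high CpG density that hold many promoters of housekeeping and developmental genes. DNA methyltransferases are kept from islands with the help of CXXC domain proteins, which bind unmethylated CpG, and of histone H3 lysine 4 methylation. RRBS cuts the genome with an enzyme that recognizes CCGG, so that most of its reads come from such CpG-rich fragments. Bisulfite then converts unmethylated cytosine, and each read of a CpG site is counted as methylated or unmethylated.

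To show what these sites look like, 4 promoter windows of 300 bases are given below. They come from the 8 windows with the most never-methylated sites among genes that held many such sites or a long unbroken run of them. The windows are RefSeq sequences of GRCm38.p6, from 250 bases before to 50 bases after a RefSeq gene start, written 5′ to 3′ on the strand of the gene. The deposited table uses mm39, so its sites were placed on a window by the spacing of the CpG sites alone. A window was used only when a single shift put every site of the table that fell inside it on a CG. For *Ado* all 47 sites fell on a CG and the next best shift reached 62.5%, and for *Ecpas*, *Ankrd52*, and *Vps54* all 49, 43, and 37 sites did, against 63.6%, 55.6%, and 50% at the next best shift. Capitals mark the never-methylated CpG sites, and CpGs in lower case either had a methylated read, were not deeply read, or were not listed.

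The windows were chr10:67548906-67549205 (minus strand) for *Ado*, chr4:58911881-58912180 (minus strand) for *Ecpas*, chr10:128376874-128377173 (plus strand) for *Ankrd52*, and chr11:21238782-21239081 (plus strand) for *Vps54*.
Ado: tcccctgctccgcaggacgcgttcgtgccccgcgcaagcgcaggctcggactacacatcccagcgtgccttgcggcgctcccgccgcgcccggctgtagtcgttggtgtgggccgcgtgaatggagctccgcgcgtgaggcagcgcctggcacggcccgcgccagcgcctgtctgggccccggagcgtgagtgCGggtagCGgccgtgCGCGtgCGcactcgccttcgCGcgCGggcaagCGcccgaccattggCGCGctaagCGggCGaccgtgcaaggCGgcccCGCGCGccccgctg
Ecpas: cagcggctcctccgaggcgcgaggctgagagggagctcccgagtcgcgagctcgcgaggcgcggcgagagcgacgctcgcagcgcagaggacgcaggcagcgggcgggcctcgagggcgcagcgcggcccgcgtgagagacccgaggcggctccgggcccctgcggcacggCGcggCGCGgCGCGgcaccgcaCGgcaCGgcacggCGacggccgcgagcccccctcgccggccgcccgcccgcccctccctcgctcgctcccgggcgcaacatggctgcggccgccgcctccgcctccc
Ankrd52: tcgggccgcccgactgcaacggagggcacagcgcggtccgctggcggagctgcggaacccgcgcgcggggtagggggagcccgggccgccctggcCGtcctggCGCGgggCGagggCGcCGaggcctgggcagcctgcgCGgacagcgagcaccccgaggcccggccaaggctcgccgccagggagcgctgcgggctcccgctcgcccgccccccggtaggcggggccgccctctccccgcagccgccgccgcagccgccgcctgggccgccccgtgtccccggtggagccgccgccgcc
Vps54: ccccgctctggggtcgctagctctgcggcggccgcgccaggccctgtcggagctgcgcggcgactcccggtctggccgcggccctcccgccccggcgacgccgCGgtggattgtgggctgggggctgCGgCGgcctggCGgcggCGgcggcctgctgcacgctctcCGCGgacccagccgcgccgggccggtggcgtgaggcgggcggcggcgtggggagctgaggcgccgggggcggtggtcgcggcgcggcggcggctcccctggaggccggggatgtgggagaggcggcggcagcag

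*Ado* encodes an enzyme that oxidizes cysteamine. Its window held 51 CpGs, of which 16 were never methylated and 4 were deeply read with a methylated read. These 4 sites had 4 methylated reads among 804 in the 6 samples, a level of 0.497%. *Ecpas* encodes an adaptor of the proteasome, and 8 of the 57 CpGs in its window were never methylated. The 8 other deeply read sites there had 14 methylated reads among 2133. In the window of *Ankrd52* 7 CpGs were never methylated and 10 were deeply read with 50 methylated reads among 3275, and in that of *Vps54*, which encodes a subunit of a tethering complex of the Golgi, 7 were never methylated and 12 had 66 methylated reads among 3558. In all 4 windows the capitals stood in 1 or a few short groups, with other CpGs on both sides. All distances below are from the closest TSS of the deposited table, which need not be the RefSeq start. By that TSS the 8 sites of *Ecpas* lay 740 to 775 bp downstream, while in the window they stand before the RefSeq start. The 16 sites of *Ado*, 56 to 153 bp downstream by that TSS, stand on both sides of the RefSeq start.

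The total coverage summed over sites was 28535973 to 33743845 reads per sample. Among deeply read sites the most frequent number of methylated reads in the 6 samples together was 5, which 23032 sites had. More than 30 were found at 20634 sites. The 3893 sites at 0 were the lower end of this distribution, followed by 9266 sites with 1 read and 15107 sites with 2 reads. Sites with 1 methylated read had a median level of 0.377%. At the limit of coverage, 559 of the never-methylated sites had a lowest coverage of 30 reads, and 617 autosomal sites at 0 fell just outside with a lowest coverage of 29. A site at 0 with the smallest possible total of 180 reads still allows a level of up to 1.67% (3 reads of the total), and a single sample with 30 reads allows up to 10%. These limits cover counting error only, since reads of RRBS without molecular identifiers can be copies of 1 molecule.

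**Figure D1:**
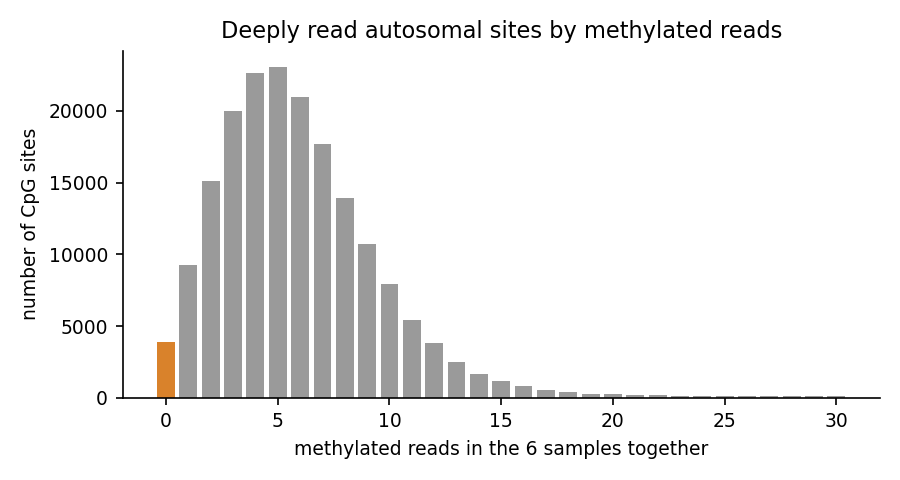
Number of deeply read autosomal CpG sites (y axis) by their methylated reads in the 6 samples together (x axis, 0 to 30; 20634 sites with more are not drawn). The orange bar, the 3893 never-methylated sites, is the left end of a distribution that peaks at 5 reads.

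Never-methylated sites had fewer reads than the others. The median over the 6 samples together was 254 reads, against 305 at the 176080 deeply read sites that had a methylated read and a level under 5% (other low sites). The share of deeply read sites that were never methylated was 9.72% at 180 to 200 reads, 3.98% at 226 to 250 reads, 2.05% at 251 to 300 reads, and 0.802% at 301 to 400 reads. Comparisons of position and density were therefore repeated among sites with 201 to 300 reads.

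The never-methylated sites lay close to transcription start sites (TSSs), and mostly downstream. Of the 3893 sites, 3181 (81.7%) lay within 1 kb of the closest TSS, against 76.2% of the other low sites and 67.9% of all deeply read sites with a methylated read. Taking the strand of the gene into account, 2856 sites (73.4%) lay downstream, 1031 (26.5%) upstream, and 6 at the TSS. The same share, 73.3%, of the other low sites lay downstream. The median position was 185 bp downstream for the never-methylated sites and 213 bp downstream for the other low sites. Among sites with 201 to 300 reads, 73.4% of the never-methylated sites and 73.2% of the other low sites were downstream. The downstream majority was thus a property of the deeply read sites in general, and these sites did not stand apart in it.

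By position, the share of deeply read sites that were never methylated was 2.74% in the last 100 bp upstream of the TSS, 2.22% in the first 100 bp downstream, and 2.31% from 251 to 500 bp downstream. It stayed between 1.88% and 2.74% from 1 kb upstream to 2 kb downstream. Beyond 10 kb it was 0.682% upstream and 0.917% downstream. These far classes held more methylated sites, with median levels of 7.06% and 3.72%, against 1.702% in the last 100 bp upstream. Of the deeply read sites with a methylated read, 15632 of 31010 beyond 10 kb had a level under 5%. Within 1 kb, 134179 of 135861 did. The part of methylated sites in the lower share beyond 10 kb was not tested.

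The clearest difference was in local site density, counted as the other CpG sites of the table within 100 bp on either side. The median was 21 sites at never-methylated sites (10th to 90th percentile 11 to 29), 15 at other low sites (6 to 24), and 14 at all deeply read sites with a methylated read. Among sites with 201 to 300 reads these medians were 21, 15, and 13. With 0 to 4 neighbors, 54 of 25510 deeply read sites (0.212%) were never methylated. This class held many methylated sites, with a median level of 48.7% (90% among those with 201 to 300 reads). The median level was 2.31% with 5 to 9 neighbors and 1.90% with 10 to 14. The share of never-methylated sites was 1.04% with 10 to 14 neighbors, 3.53% with 20 to 24, and 8.91% with 30 to 34. Among sites with 201 to 300 reads it went from 0.219% to 14.9% over the same range, and was 10.1% (18 of 179 sites) with 35 or more neighbors.

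**Figure D2:**
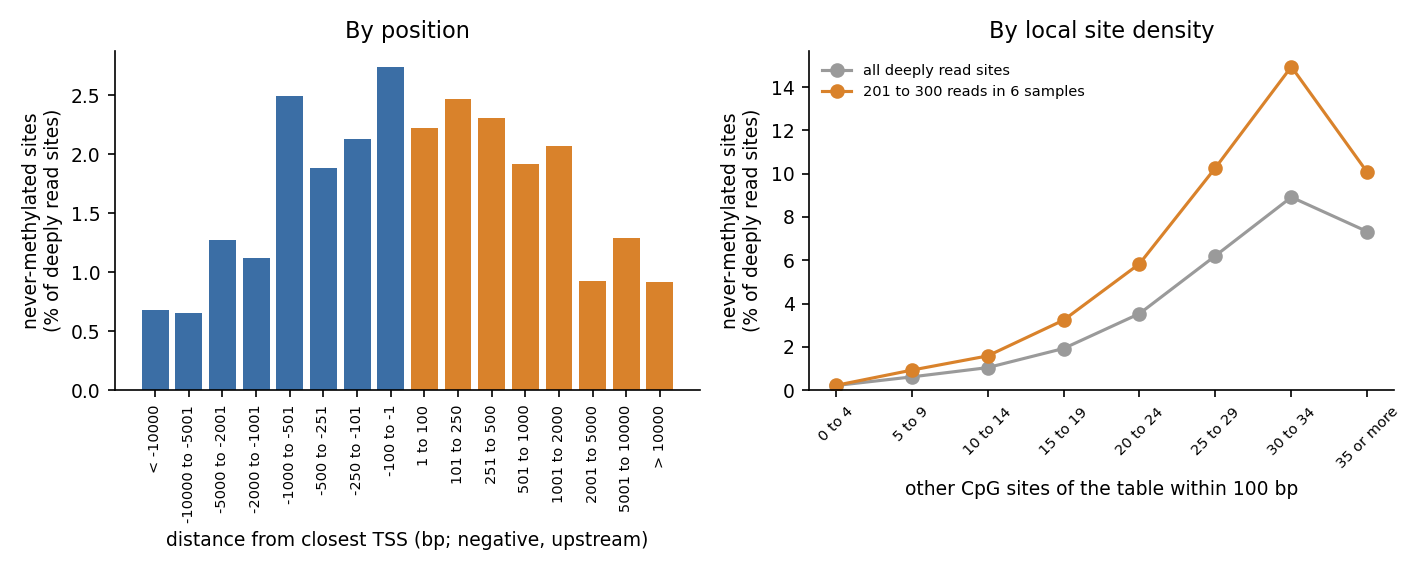
Percent of deeply read autosomal sites that were never methylated (y axes), by signed distance from the closest TSS in bp (left; blue, upstream; orange, downstream) and by the number of other CpG sites of the table within 100 bp (right; gray, all deeply read sites; orange, those with 201 to 300 reads). The share is highest near the TSS, at similar height on both sides, and climbs with density from under 1% to 8.91% (gray) and 14.9% (orange) at 30 to 34 neighbors. The class with 0 to 4 neighbors held many methylated sites (median level 48.7%, gray). The classes beyond 10 kb also held more methylated sites than those near the TSS (median level 7.06% upstream and 3.72% downstream).

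Within 1 kb of a TSS, density and side could be compared together. With 25 or more neighbors, 283 of 3383 upstream sites (8.37%) and 625 of 9851 downstream sites (6.34%) were never methylated. With 10 to 14 neighbors the shares were 0.999% and 1.20%. At equal density the sides thus differed much less than densities did on either side.

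Because the level chose these sites, the relation with density was also looked for in reads that the choice had not used. For each sample in turn, sites at 0 in the other 5 samples were taken and their level was read in that sample only. Where fewer than 15 sites lay within 100 bp, the held-out level averaged 1.64% ± 0.170 for Space and 1.52% ± 0.290 for Ground GS cells (SD, n = 3 each). With 25 or more it was 0.865% ± 0.0770 and 0.819% ± 0.127. The dense sites were lower in 6 of 6 samples, by 0.574 to 0.918 percentage points. Between sides the held-out level differed little, with a downstream minus upstream difference between -0.00968 and 0.0637 points. Sites over 10 kb from a TSS were higher than those within 1 kb in 5 of 6 samples, with differences between -0.101 and 0.238 points. Sites with 251 or more reads were higher than those with fewer in 6 of 6 samples, by 0.0909 to 0.248 points.

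Sites with a lowest coverage of 10 to 29 reads had not been eligible, and they gave the same order. Within 1 kb of a TSS, those with a level under 5% averaged 1.85% (range over samples 1.53% to 2.18%) with up to 9 neighbors, 1.69% with 10 to 14, 1.52% with 15 to 19, 1.32% with 20 to 24, and 0.9997% (0.867% to 1.16%) with 25 or more. The ranges at both ends did not overlap. In the sparsest class 87.9% of the sites were under 5%, and in the densest class 99.5%.

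The sequence around the sites was examined where promoter windows could be matched by CpG spacing, as above. Of 10399 windows tried, 6883 (66.2%) had 1 exact match, and 751 never-methylated sites (19.3%) were placed. Of 747 with both neighboring bases inside the window, 508 (68.0%) had G or C on both sides of the CpG, against 56.2% of 26181 other low sites, and 4.02% against 6.47% had A or T on both sides. GCGC held 25.3% of the never-methylated sites and 18.1% of the other low sites. These shares were not matched for local site density, and the 747 sites lay in 270 genes, where neighboring sites can share reads. None of the 747 lay in CCGG, which allows a share of up to 0.402% if sites are taken as independent. Of the other low sites 13 did, and the table itself lists few of them: 6.65% of 20625 CpGs in CCGG in the matched windows had an entry, against 77.4% of 148305 other CpGs. The median distance to the nearest CCGG was 23 bp (quartiles 15 and 33) for the never-methylated sites and 19 bp (14 and 27) for the other low sites.

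Whole promoter windows were compared by how many never-methylated sites their genes held. A gene with more deeply read CpGs has more chances to hold one, and the values were not adjusted for this. The median number of CpGs in the 300 bases was 7 over all 27025 promoters of the RefSeq set and 22 for 8013 genes with deeply read sites but no never-methylated site within 1 kb. It was 28.5 for 828 genes with at least 1 and 34 for 179 genes with 5 or more. These 828 were the genes with a promoter entry among 1098. The motif GGGCGG, read on both strands and itself containing a CpG, was found in 35.9%, 66.9%, 78.4%, and 84.4% of these windows. The motif TATAAA, also read on both strands, was found in 14.2%, 6.63%, 5.31%, and 4.47%. A match is only a run of letters and was not tested for binding.

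The never-methylated sites came in groups. Joined when no more than 100 bp apart, they formed 1468 clusters, of which 582 were single sites and 251 had 5 or more, and 2705 sites (69.5%) were in clusters of 3 or more. The median span of the latter was 42 bp and the longest was 193 bp. Neighboring sites share reads: of 2425 adjacent pairs within 100 bp, 1837 (75.8%) had the same coverage in all 6 samples and 97.2% differed by no more than 2 reads in any sample. Sites of a cluster are therefore not separate observations. With each cluster counted once, the median density was 18.5 instead of 21. Inside the spans of clusters of 3 or more, 2223 of 4928 deeply read sites had a methylated read, and 1167 of these had only 1. Their level over all reads was 0.700%.

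The longest unbroken runs, in which each successive deeply read site was never methylated, had 8 sites. The run in *Ado* (chr10:67384744-67384780 in mm39) had 34, 30, and 38 reads at the median site for Space samples 1 to 3 and 37, 30, and 32 for Ground samples 1 to 3. Its total was 201 reads at each site, and 2 of its samples were exactly at the minimum of 30. The run in *Golga5*, which encodes a golgin, lay 214 to 253 bp downstream of the TSS (chr12:102435607-102435646), with 44, 37, and 43 reads in Space and 32, 41, and 50 in Ground GS cells. *Mroh5* followed with 7 sites between 45 and 12 bp upstream. Runs of 6 were found in *Ankrd52*, *9530018F02Rik*, *Ssx2ip*, and *Ccne2*, the gene of cyclin E2. That of *Ccne2*, 551 to 519 bp upstream, had the most reads of these, 320 to 321 per site.

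Among 18592 genes with a deeply read site, 1368 (7.36%) were the closest gene of a never-methylated site, and 517 of these had 1. The 270 genes with 5 or more held 1788 sites (45.9%), and the 10 genes with the most held 142 (3.65%). Genes with a never-methylated site had a median of 24 deeply read sites and the others a median of 6.

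*Ube2o*, the gene of a large ubiquitin-conjugating enzyme, held the most, 18 of its 47 deeply read sites (38.3%). They lay from 103 bp upstream to 478 bp downstream of the TSS (chr11:116471794-116472375, mm39), and 16 of them formed 1 cluster of 193 bp. The other 29 sites of *Ube2o* had levels of 1.15%, 1.22%, and 0.814% for Space samples 1 to 3 and 0.984%, 0.873%, and 0.828% for Ground samples 1 to 3. The groups overlapped, and no site of the gene exceeded 2.97% over all samples.

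*Ado* followed with 16 of 52 sites, all in 98 bp (chr10:67384744-67384841). They lay 56 to 153 bp downstream of the deposited TSS, where 33 to 35 other sites lay within 100 bp. Every never-methylated site of *Ado* had 30 to 38 reads per sample, so none would remain with a minimum of 50. Its other 36 sites were at 2.88%, 3.57%, and 1.66% in Space and 2.32%, 2.79%, and 2.28% in Ground GS cells. The highest of them reached 26.4%, at 1283 bp downstream, so the same gene held both unmethylated and partly methylated sites.

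*Sdk1*, the gene of a cell adhesion protein of neurons, had 15 of 70 sites, 6 of them upstream and 9 downstream (chr5:141227147-141227647). Its other sites were at 2.13%, 1.98%, and 1.54% in Space and 1.36%, 2.80%, and 0.805% in Ground GS cells, so that the lowest and the highest sample were both Ground GS cells. *Dyrk1a*, which encodes a kinase, had 14 of 121 sites in 2 clusters, 10 of them 744 to 641 bp upstream and 4 within the first 51 bp downstream (chr16:94370124-94370919).

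**Figure D3:**
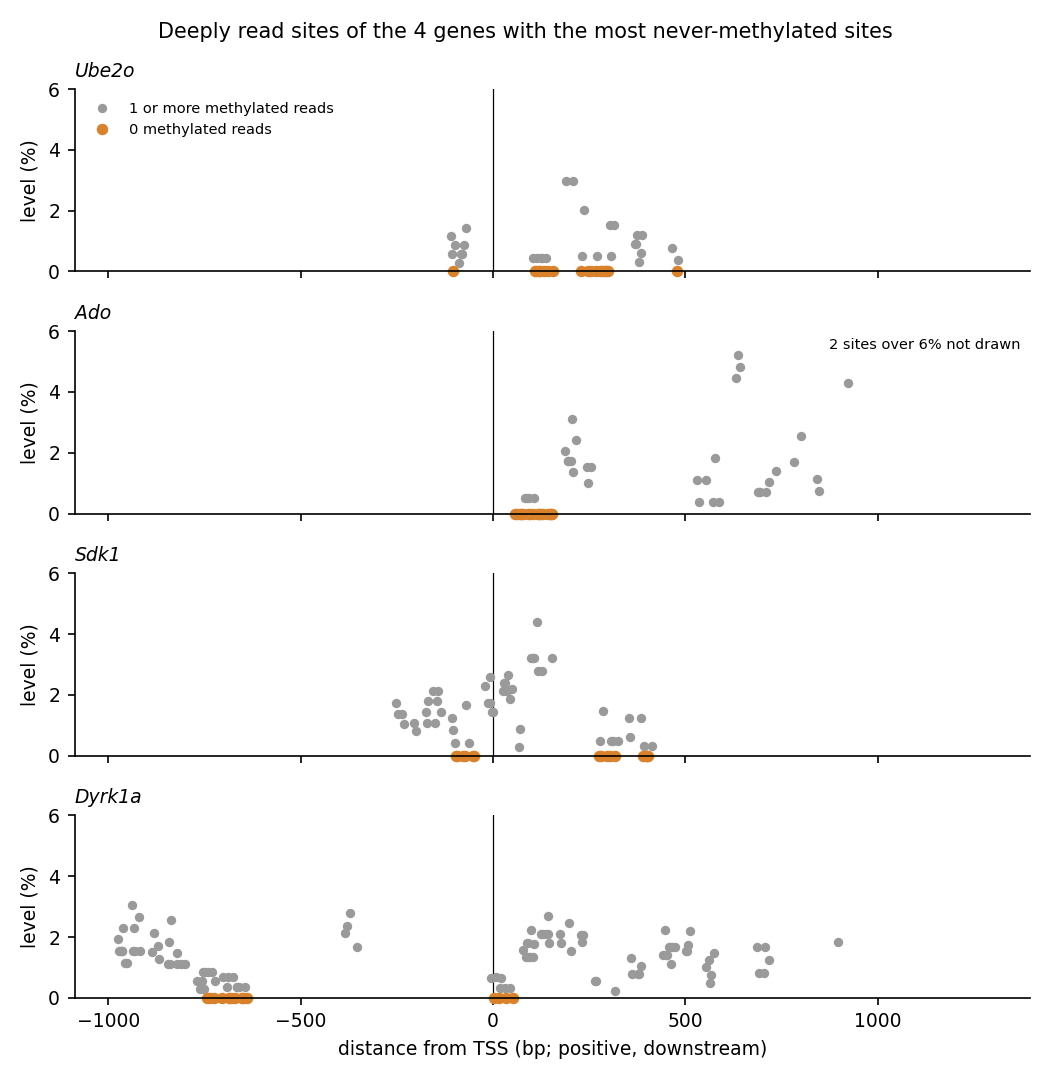
Methylation level over the 6 samples in percent (y axes, 0 to 6) of each deeply read site within 1500 bp of the TSS against its distance from it in bp (x axis) for *Ube2o*, *Ado*, *Sdk1*, and *Dyrk1a*. Orange points are never-methylated sites and gray points are sites with a methylated read; the orange points form 1 to 3 groups per gene, and 2 sites of *Ado* above 6% are not drawn.

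In *Ecpas* (14 of 49), *Pik3cb* (14 of 58), and *Pou4f1* (13 of 53) all never-methylated sites lay downstream, at 740 to 1085, 395 to 746, and 499 to 1627 bp. These distances are from the deposited TSS, and 8 of the sites of *Ecpas* stood before the RefSeq start of its window. *Pik3cb* encodes a catalytic subunit of phosphoinositide 3-kinase, and *Pou4f1* a transcription factor of sensory neurons. All 12 of 34 sites in *Rasgef1a*, the gene of a Ras exchange factor, also lay downstream, in 1 cluster at 88 to 201 bp. *Vps54* was the opposite, with all 13 of 41 sites upstream, at 395 to 82 bp. *Vapa*, which encodes a protein of the endoplasmic reticulum membrane, had 13 of 65, 11 of them downstream.

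The other sites of these genes showed how much levels varied between samples. In *Vps54* they were at 2.28%, 2.25%, and 3.52% for Space and 0.790%, 0.981%, and 1.15% for Ground GS cells, without overlap. In *Rasgef1a* they were at 1.86%, 0.557%, and 1.48% in Space and 1.16%, 2.32%, and 4.99% in Ground GS cells, with overlap. In *Pik3cb*, Space GS cells had 1.61%, 1.49%, and 1.28% and Ground GS cells had 1.09%, 0.951%, and 0.992%, also without overlap. Of the 10 genes with the most never-methylated sites, these 2 had groups without overlap and the other 8 had groups that overlapped. Among 3212 genes with at least 20 deeply read sites that had a methylated read, the groups did not overlap in 9.56%. These are values at sites kept because they had a methylated read, and they were not tested gene by gene.

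Some genes with many deeply read sites had no never-methylated one. Of 693 genes with at least 40 deeply read sites, 300 had 1 or more, and 78 had at least 10%. *Spen*, *Ubtf*, *Chd7*, *Phf13*, and *Foxo6*, with 99 to 118 deeply read sites each, had none. *Ubtf* encodes a transcription factor of ribosomal RNA genes and *Chd7* a chromatin remodeler. Their median density was 15 to 22, and their level over all reads was 1.61% to 4.43%. In *Phf13* 7 sites and in *Spen* 2 sites had a single methylated read.

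Far from annotated starts, 256 never-methylated sites (6.58%) lay more than 10 kb from the closest TSS, in 109 clusters assigned to 106 genes. Their median density was 19, near that of all never-methylated sites, while the 15632 other low sites at this distance had a median of 12. *Mical3* had 7 of 22, 20861 to 21098 bp downstream (chr6:121086860-121087097), and *Gm13425* had 7 of 28, 13829 to 13745 bp upstream (chr2:31544345-31544429). *Gm50339*, *Onecut3*, *Rap1gap2*, *Slc49a4*, and *Usp7* had 6 each. Those of *Rap1gap2* were 88332 to 88382 bp downstream, where 24 to 27 sites lay within 100 bp.

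By chromosome the share ranged from 1.52% (chromosome 3) to 2.63% (chromosome 17). On the X chromosome, which the definition leaves out, 4 of 256 deeply read sites (1.56%) were at 0.

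The never-methylated sites in gene families are described beside the 1.91% of sites over all genes, with no test of a family. Ribosomal protein genes held 20 among 686 deeply read sites (2.92%), in 5 of 65 genes (7.69%, against 7.36% of all genes). *Rps19* had 7, *Rpl26* had 5, and *Rplp0* had 2, at 52 to 329 bp downstream. Proteasome subunit genes held 8 of 291 (2.75%), 2 each in *Psmc1*, *Psmc2*, *Psmc4*, and *Psmd12*. Translation factor genes held 3 of 800 (0.375%), 1 each in *Eif2a*, *Eif2b4*, and *Eif4enif1*. Respiratory complex I genes held 1 of 220, in *Ndufc1*, and histone genes 0 of 218, which allows a share of up to 1.38% if sites are taken as independent, though neighboring sites share reads.

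Developmental genes also held such sites. Hox genes, which set position along the body axis, held 18 of 673 (2.67%), in 8 of 35 genes. *Hoxa13* and *Hoxd8* had 4 each, and *Hoxa2* had 3. A set of developmental transcription factor families, among them Pax, Sox, Fox, Gata, Tbx, Lhx, and Nkx, held 48 of 2660 (1.80%), with 7 in *Foxc2*, 7 in *Sox1*, 6 in *Nkx2-4*, and 5 in *Tbx1*. Those of *Foxc2*, *Sox1*, and *Tbx1* lay 1476 to 8552 bp downstream, and only those of *Nkx2-4* among these 4 came closer than 1 kb. Zfp zinc finger genes held 45 of 3182 (1.41%), with 8 in *Zfp777*, 7 in *Zfp362*, and 5 in *Zfp629*. Olfactory receptor genes, which lack CpG islands, held 0 of 128, which allows a share of up to 2.34% on the same basis.

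Spermatogonial genes held 15 among 540 deeply read sites (2.78%), in 2 of 31 genes (6.45%, against 7.36% of all genes). *Eomes* had 8 of 56 and *Nanos3* had 7 of 31, and 0 were found in the other 29 genes. *Eomes* encodes a T-box factor and *Nanos3* an RNA-binding protein of germ cells. In *Nanos3* they lay 1311 to 1355 bp downstream with 30 to 40 reads per sample. Enzymes of DNA methylation and of CpG islands had 3 of 360, 2 in *Dnmt3a*, a de novo methyltransferase, and 1 in *Kmt2a*, a histone H3 lysine 4 methyltransferase with a CXXC domain.

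The labelled cell type was checked by genes whose promoters are methylated in somatic cells and unmethylated in germ cells. In 12 such genes, of 25 listed, 80 deeply read sites within 1 kb of the TSS were at 1.23% to 3.16% per sample. Among them 1 site of *Dazl* was never methylated. At 59 sites of 10 imprinted genes that carry methylation from the mother, levels were 1.58% to 3.22%, and 1 site of *Grb10*, 1962 bp downstream, was never methylated. Fibroblast genes had 58 sites in 5 genes at 1.02% to 2.06%. Of their 95 deeply read sites 0 were never methylated, which allows a share of up to 3.16% if sites are taken as independent. All deeply read sites within 1 kb of a TSS were at 1.90% to 2.52%, so these markers were near the general level of promoters. The germline genes were at the low level that their list describes for germ cells. Fibroblast genes were as low, so the levels of the fibroblast genes do not tell the cell types apart.

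Whether storage in space changed how often sites were unmethylated was addressed with values per sample. The percent of the 203841 deeply read sites at 0 was 31.5%, 40.02%, and 39.4% for Space samples 1 to 3 and 35.9%, 40.5%, and 44.6% for Ground samples 1 to 3. The groups overlapped, with means of 37.0% ± 4.74 and 40.4% ± 4.36 (SD, n = 3 each, exact two-sided permutation test, p = 0.4). With 3 against 3 samples this test cannot give a p below 0.1. Coverage differed too, with a median of 48 to 55 reads in Space and 46 to 49 in Ground GS cells at these sites. If exactly 30 reads were drawn at each site, the expected percent at 0 was 52.0% ± 2.99 and 53.4% ± 4.56 (exact permutation test, p = 0.6).

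The held-out level showed how far a site at 0 in 5 samples stayed at 0 in the remaining one. The values were 1.39%, 1.19%, and 1.14% for Space samples 1 to 3 and 1.31%, 1.13%, and 0.937% for Ground samples 1 to 3, over 5621 to 7007 sites. Means were 1.24% ± 0.132 and 1.12% ± 0.186 (SD, n = 3 each, exact permutation test, p = 0.4). The difference of 0.116 points did not exceed the SD in Space or in Ground GS cells, and without Ground GS cells 3 it was -0.00743 points. Of the held-out sites, 55.6% to 69.3% were also at 0 in the remaining sample. The sites at 0 in 5 samples thus had a level near 1% in the sample that had not chosen them, below the 1.56% to 2.17% of all deeply read sites under 5%, those at 0 included.

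**Figure D4:**
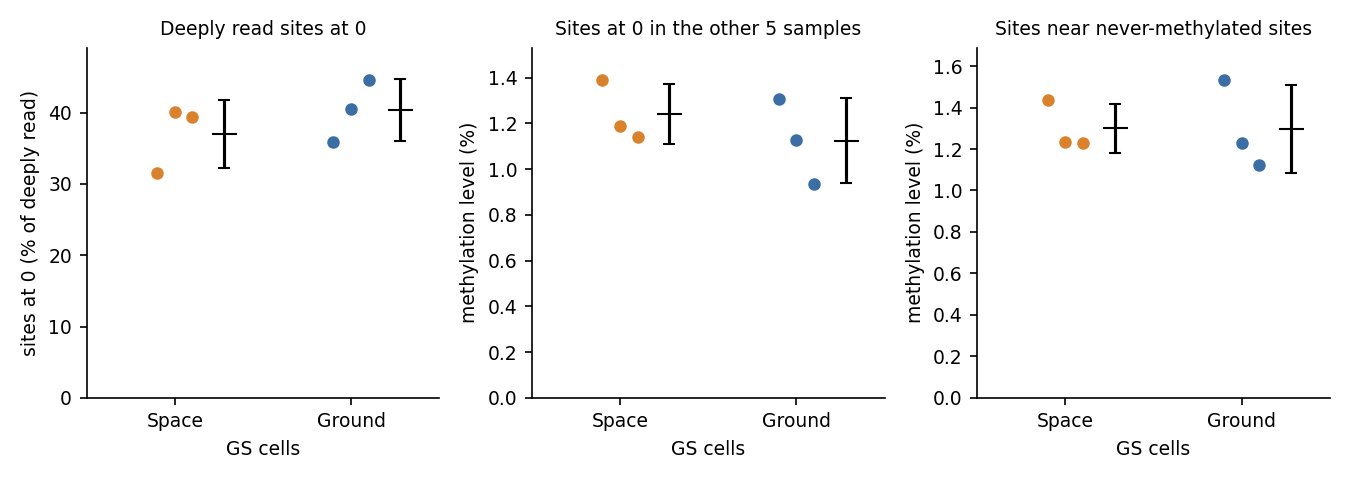
Values per sample (points; Space GS cells, orange; Ground GS cells, blue) with mean and SD (black): percent of deeply read sites at 0 (left), methylation level in percent at sites that were at 0 in the other 5 samples (middle), and level in percent of sites with fewer reads within 100 bp of a never-methylated site (right). The groups overlap in all 3 plots, and the exact p-values are 0.4, 0.4, and 0.8.

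Among deeply read sites, choosing by 0 in 1 group and reading the other gave no site with a mean of 10% or more. The 21309 sites at 0 in all Ground GS cells reached 1.69%, 1.49%, and 1.43% in the Space samples 1 to 3. Of these, 327 (1.53%) had a mean of 5% or more and 0 of 10% or more. The highest was in *Mroh4* (chr15:74460786, 47415 bp downstream) with 5.26%, 10.6%, and 11.9%. The 16641 sites at 0 in all Space GS cells were at 1.599%, 1.35%, and 1.21% in Ground GS cells. Of these, 176 (1.06%) had 5% or more and 0 had 10% or more. The highest was in *Pkdcc* (chr17:83522686, 34 bp upstream) with 12.1%, 7.32%, and 6.45%. These 2 sites were picked as the extremes of many and are given as values only.

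Sites that had too few reads to be eligible showed the level around the never-methylated sites. Within 100 bp of one, 9285 sites with a lowest coverage of 10 to 29 reads were at 1.44%, 1.23%, and 1.23% for Space and 1.53%, 1.23%, and 1.12% for Ground GS cells. Means were 1.30% ± 0.119 and 1.30% ± 0.214 (SD, n = 3 each, exact permutation test, p = 0.8). Near the other low sites 179293 such sites were at 1.91%, 1.65%, and 1.56% in Space and 1.95%, 1.55%, and 1.41% in Ground GS cells. Sites near both kinds were counted in both. The neighbors of never-methylated sites were lower in 6 of 6 samples, by 0.286 to 0.472 points.

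By distance, the levels near a never-methylated site and near another low site were 1.13% and 1.75% at 1 to 50 bp, 1.42% and 1.59% at 51 to 100 bp, and 1.47% and 1.698% beyond 100 and up to 250 bp. The ranges over samples did not overlap at 1 to 50 bp and overlapped from 51 to 250 bp. Farther out they were apart again, with 1.216% to 1.755% against 1.929% to 2.52% at 251 to 500 bp. They were 1.452% to 2.162% against 6.75% to 7.597% at 501 to 1000 bp. At 1001 to 2000 bp they were 6.229% to 6.726% against 33.92% to 34.98%. Sites close to the site that chose them can share reads with it. The median density was 21 against 17 at 1 to 50 bp, 18 against 11 at 251 to 500 bp, and 12 against 5 at 1001 to 2000 bp. The part of shared reads and of density in these differences was not tested.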

How the data were processed

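RRBS of 3 Space GS cell and 3 Ground GS cell samples was analyzed from 1 deposited table, and groups came from the sample titles. For each CpG site the authors deposited the coverage as a read count and the methylated share as a percent, with the closest TSS, its strand, gene, and distance. The submitters' processing notes name Trim Galore, Bismark 0.24.2, methylKit, and mm39. The bisulfite conversion rate and removal of duplicates are not given in the sources used here. Both strands of a CpG form 1 entry.

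The methylated read number of a site was its coverage multiplied by its percent, within 0.000266 of a whole read. Distances were taken from the closest TSS of the deposited table and signed by the strand of the gene. Levels are percents of methylated reads, and SDs are over 3 samples. Groups were compared with exact two-sided permutation tests of per-sample values. The functions were tested on simulated data. Alternatives were a minimum of 20 or 50 reads, other windows, replicate blocks, and leaving out each sample. No tests were run across sites, and exons and introns were not used here, as the annotation at hand was for another build. Python 3.11.15, numpy 2.4.6, pandas 2.3.3, scipy 1.17.1, and matplotlib 3.10.9 were used.

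The sites, gene lists, and rules were chosen with earlier results of these data known. Genes were named if they were among the 10 with the most never-methylated sites, the 5 with the largest share (at least 40 deeply read sites), the 5 with none and the most deeply read sites under 5%, the 5 with the longest runs, the 5 with the most beyond 10 kb, or up to 4 per gene list, and some of these genes are not reported here. Tied genes were added, and *Mroh4* and *Pkdcc* were named after their values were seen.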

Additional observations from a re-analysis of the deposited data

How the results depend on the processing

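The number of never-methylated sites depended on the coverage minimum. It was 15554 with at least 20 reads, 109 with at least 50, and 13159 when 1 methylated read in the 6 samples together was allowed, against 3893. Defined by 5 samples, it was 7211, 6808, and 6419 without Space GS cells 1, 2, and 3, and 7150, 6495, and 6173 without Ground GS cells 1, 2, and 3. The percent downstream was 71.6% with at least 50 reads, and 73.3% to 74.0% under 4 other alternatives, against 73.4%, among them sites with 201 to 300 reads, which were chosen after seeing the data. The median density was 11 within 50 bp and 45 within 250 bp, where other low sites had 7 and 34, and 18.5 with 1 value per cluster, also chosen after seeing the data.

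For Space minus Ground GS cells, the percent of deeply read sites at 0 differed by -3.40 points and kept its sign under all 10 alternatives (exact permutation p = 0.25 to 0.8), with -5.45 to -0.674 points when 1 sample was left out. The held-out level differed by 0.116 points, with -0.00743 to 0.237 when 1 sample was left out (the lowest without Ground GS cells 3, the highest without Ground GS cells 1), and kept its sign under the 3 other coverage and averaging alternatives. The level of neighboring sites differed by 0.00475 points, by -0.00262 within 50 bp, and by -0.0481 to 0.149 when 1 sample was left out, so it has no stable sign. The cause of these shifts was not tested. With the replicate number as a block, the exact sign-flip p was 0.25 for the sites at 0 (-3.40 points), 0.25 for the held-out level, and 0.75 for the neighbors, and 0.25 is the smallest that 3 pairs can give. Over single sites, the deviations of same-numbered samples from their group means correlated at 0.0125, 0.000540, and 0.00318. Their mean levels at deeply read sites under 5% had the same order in both groups, 2.15%, 1.85%, and 1.76% in Space and 2.17%, 1.75%, and 1.56% in Ground GS cells 1 to 3. The sample descriptions also give same-numbered Space and Ground samples consecutive numbers. The labels do not say that any of these numbers marks a pair, so whether the samples are paired is not settled here. Depth limits single sites, since 30 reads at 0 allow a level of up to 10%.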
